A study of Mus musculus with 24 samples.

Results

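The cell cycle and proliferation genes described here are 34 genes chosen by name: 15 that act in G1 and S phase and 19 that act in mitosis. They were found by symbol in an expression table that lists 52089 gene symbols, and all 34 were present. A gene often had several transcript entries in the table, so each was represented by its curated RefSeq mRNA entry with the highest mean level over the 24 libraries. Primary preadipocytes from the stromal vascular fraction of inguinal white fat of 129SvEv mice, as the labels name the strain, spent 2 days in induction medium and 1 day in differentiation medium with rosiglitazone, which turns them into brite (brown-in-white) adipocytes. On that day all cells were reverse transfected with 50 nM of an LNA gapmer, a chimeric antisense oligonucleotide that directs RNase H to an RNA. The gapmer was directed against the long noncoding RNA Ctcflos in the KD cells and was nontargeting in the control (NC) cells. Cells were harvested 24 h or 72 h after transfection, which gave 4 groups, named by gapmer and hour, of 6 libraries each. All 4 groups therefore carried rosiglitazone, the transfection reagent and a gapmer. The study's methods name male mice of 5 to 6 weeks as the source of its primary cultures, and the labels add no age or sex for these samples. The KD used 1 gapmer sequence as far as the labels show, and nothing in the labels ties a replicate to an animal or a culture. The p-values below measure the spread between these libraries, which may be partly technical.

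A dividing cell commits itself in G1, when D-type and E-type cyclins release E2F factors from the retinoblastoma family, and then copies its DNA in S phase. The MCM2-7 complex is the helicase that opens DNA at replication origins, PCNA is the sliding clamp of the polymerases, and ribonucleotide reductase (RRM1, RRM2), thymidylate synthase (TYMS) and thymidine kinase (TK1) supply deoxynucleotides. In mitosis, CDK1 with B-type cyclins, the Polo and Aurora kinases, the spindle checkpoint and the anaphase-promoting complex condense, align and separate the chromosomes. S phase genes are transcribed earlier in the cycle, largely under E2F, and mitotic genes later, through CCAAT and CHR promoter elements bound by NF-Y and by complexes built on MuvB. Preadipocytes can divide in culture and leave the cycle as they mature into fat cells.

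The promoters are shown because these elements are the known marks of the S phase and the mitosis class. RefSeq starts (GRCm38.p6) gave a promoter, from 250 bases before to 50 after the start, for 28 of the 34 members and for 27025 genes in all. The letters searched on both strands were TTTGAA or its variant TTCGAA for the CHR, and CCAAT for the box of that name. For E2F they were the words TTCCCGC and likewise TTGGCGC, then also TTCGCGC and finally TTGCCGC. The E2F words can overlap each other, since a word on one strand can share letters with a word on the opposite strand. Among the 16 mitosis promoters, 13 (81.2%) held CHR letters, against 21.7% of all genes. CHR letters were in 2 of the 12 S phase and G1 promoters (16.7%). E2F letters were in 6 of those 12 (50%), in 3 of the 16 mitosis promoters (18.8%) and in 10.9% of all genes. CCAAT was in 14 of 16 mitosis promoters (87.5%), in 8 of 12 S phase and G1 promoters (66.7%) and in 41.1% of all genes. All 13 mitosis promoters with CHR letters also held CCAAT, a combination found in 9.65% of all genes. These are matches of letters and do not show that a factor bound. The promoters of Cdc20, Mcm3 and Mcm6 are given in full because these genes carry calls in the comparisons below. Capitals mark the letters matched for any of the 3 motifs, and each sequence reads 5′ to 3′ along the gene's strand, which is the minus strand for all 3.
Cdc20, chr4:118437294-118437593, with the element 18 bases, and CCAAT 53 and 8 bases, before the start: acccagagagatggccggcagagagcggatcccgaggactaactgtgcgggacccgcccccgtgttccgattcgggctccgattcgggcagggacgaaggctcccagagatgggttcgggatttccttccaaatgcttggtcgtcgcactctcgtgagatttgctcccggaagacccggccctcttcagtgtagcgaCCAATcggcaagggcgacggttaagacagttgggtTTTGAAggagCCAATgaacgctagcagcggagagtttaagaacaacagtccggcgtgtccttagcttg
Mcm3, chr1:20820263-20820562, E2F letters 20, 40 and 43 bases after the start: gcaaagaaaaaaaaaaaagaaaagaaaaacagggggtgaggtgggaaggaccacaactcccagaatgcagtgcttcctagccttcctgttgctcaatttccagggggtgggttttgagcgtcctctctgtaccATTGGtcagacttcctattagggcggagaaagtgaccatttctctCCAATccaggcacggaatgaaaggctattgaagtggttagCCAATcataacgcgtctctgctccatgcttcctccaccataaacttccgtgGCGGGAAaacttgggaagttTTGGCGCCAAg
Mcm6, chr1:128359656-128359955, 5 overlapping or separate E2F words: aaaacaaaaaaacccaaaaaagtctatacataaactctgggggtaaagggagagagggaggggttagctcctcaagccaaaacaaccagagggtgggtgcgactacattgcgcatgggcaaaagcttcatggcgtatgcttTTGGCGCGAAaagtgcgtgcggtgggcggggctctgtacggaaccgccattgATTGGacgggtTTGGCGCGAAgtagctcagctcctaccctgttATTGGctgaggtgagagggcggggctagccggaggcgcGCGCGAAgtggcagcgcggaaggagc

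The CHR letters of further mitosis members are shown as windows of 30 bases with the CHR in capitals, to let the flanks be compared. The letters after TTTGAA are not the same in all genes, though Plk1 and Prc1 both go on with TTC. In Ube2c the element lies on the opposite strand, so that it reads TTCAAA. Cdk1 has 2 CHR matches, and the window shown lies 71 bases before the start, while the other match lies 15 bases before it. The Mcm2 window is given because Mcm2 is an S phase gene with CHR letters and with no E2F word in its promoter.
Cdk1, chr10:69352966-69352995, minus strand: ctgattggctccTTTGAAcgtctacgtgca
Plk1, chr7:122159453-122159482, plus strand: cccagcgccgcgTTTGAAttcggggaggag
Prc1, chr7:80294434-80294463, plus strand: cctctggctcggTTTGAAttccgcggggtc
Ube2c, chr2:164769888-164769917, plus strand: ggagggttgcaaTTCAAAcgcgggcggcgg
Bub1, chr2:127831828-127831857, minus strand: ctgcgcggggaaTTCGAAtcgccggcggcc
Mcm2, chr6:88898833-88898862, minus strand: agggctcagcctTTTGAAagctgtgggcgg

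**Figure D1:**
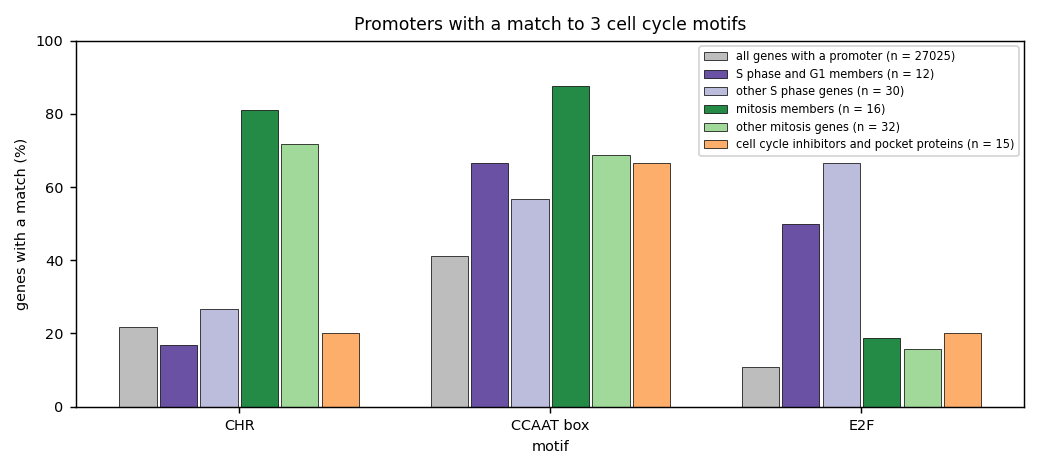
Share of genes, in percent of those with a RefSeq promoter, whose 300 bases around the start held the CHR, CCAAT or E2F letters. Bars stand for the member lists, the other S phase genes, the other mitosis genes, the inhibitors and pocket proteins, and all genes. CHR letters were in 81.2% of mitosis members against 16.7% of S phase and G1 members, and E2F letters in 18.8% against 50%.

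Levels are given as RPKM, which divides reads by transcript length and by the mapped reads of a library, rescaled between libraries by a trimmed mean of the log ratios. The reads behind each value were worked back from the table and came to between 1391832 (KD 24 h replicate 6) and 5926375 (NC 72 h replicate 6) per library, with a median of 4009998. NC 72 h replicates 2 and 3 differed by less than counting noise (0.348 times the variance that counting gives, against 2.079 for the next closest pair), so they were averaged and counted as 1 sample, which leaves n = 5 for NC 72 h. Odd numbers made up 14.8% of the low read numbers of NC 72 h replicate 6, while the remaining libraries had between 54.14% and 55.96%. The total of that library took the smaller step between its values as 1 read, so it may overstate the library's depth. A Ctcflos entry (1300015D01Rik, NR_040321) had a mean of 0.741 RPKM (60 reads over 6 libraries) in NC 24 h and 1.18 (101 reads) in NC 72 h. In KD cells it had 0.189 (12 reads) at 24 h and 0.231 (17 reads) at 72 h, the order that the labels give. The entry of Ctcflos transcript 1, by the study's naming, had 0.430 (12 reads) in NC 24 h and 0.255 (8 reads) in KD 24 h. At 72 h it had 1.25 (41 reads) in NC and 0.124 (3 reads) in KD cells. Its ranges overlapped at both times. Fabp4, the main fatty acid carrier of fat cells, lay between 22530 and 46910 RPKM in every library, while the endothelial list summed to at most 9.52 RPKM. The adipokine gene Lep was listed at 0 in 22 of the 24 libraries. The libraries also fell into clusters that the labels do not name. Over 4279 genes outside the cell cycle lists, the deviations from the group means set 8 libraries apart from the other 16, with exactly 2 of the 8 in each group: KD 24 h 3 and 4, NC 24 h 5 and 6, KD 72 h 5 and 6, and NC 72 h 4 and 5. The members' comparisons are therefore also given within these clusters.

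The members differed widely in level. Rrm2, the regulated subunit of ribonucleotide reductase, had the highest mean over the groups at 48.4 RPKM, followed by Birc5 (39.5), the survivin subunit of the chromosomal passenger complex. Cdk1 (22.0), the mitotic kinase itself, came next, then Tk1 (17.0) and Rrm1 (15.4). At the other end stood the kinase Plk1 (1.83), the checkpoint kinase gene Bub1b (1.33), the proliferation marker Mki67 (1.15), the spindle motor Kif11 (0.763) and Bub1 (0.633). Bub1 was too low to be tested in 2 of the comparisons. The libraries were made from barcoded oligo-dT cDNA, whose reads lie near the 3′ end, and RPKM divides them by the whole length, so levels of long and short genes are compared only roughly. In bulk RNA, fewer dividing cells and less of these RNAs per cell cannot be told apart.

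In the control cells, which ask how the members moved as differentiation went on, no member passed the test between 24 h and 72 h. Most estimates were negative nevertheless: 29 of the 34 log2 differences lay below 0, 14 of 15 in the S phase and G1 list and 15 of 19 in the mitosis list. Their median was -0.21, with -0.19 for S phase and G1 and -0.24 for mitosis, while the median over all 52801 entries tested was -0.001. The members' differences ran from -0.77 to 0.10. In this comparison 4.65% of all entries were lower and 4.44% higher at an adjusted p under 0.05 (limma, Benjamini-Hochberg over all entries), beside 0 of the 34 members. At an unadjusted p under 0.05 there were 2 members, Mcm2 and Mcm6, beside 11996 of the 52801 entries.

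Mcm2, a subunit of the replicative helicase, ranged from 2.02 to 6.76 RPKM in NC 24 h (median 4.31) and had 2.41, 1.41, 3.78, 2.31 and 2.495 RPKM in the 5 NC 72 h samples. At 72 h 4 of the 5 samples lay below the 24 h median but within the 24 h range, and the averaged replicates 2 and 3 lay below that range. The log2 difference was -0.77 ± 0.30 (SE) with an adjusted p of 0.145 (limma). Mcm6, another helicase subunit, ranged from 2.15 to 5.20 RPKM (median 3.20) at 24 h and read 1.65, 2.34, 3.48, 2.46 and 1.70 at 72 h, a log2 difference of -0.58 ± 0.26 (adjusted p = 0.199, limma).

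Of the mitosis genes, Cdc20, the activator of the anaphase-promoting complex, came closest to the threshold. It ranged from 4.10 to 7.91 RPKM (median 6.46) in NC 24 h and had 4.97, 3.66, 5.95, 5.498 and 3.69 RPKM in NC 72 h. All 5 later values lay below the earlier median, but inside or just under the earlier range. The log2 difference was -0.40 ± 0.20 (adjusted p = 0.248, limma). Plk1, the Polo-like kinase that drives mitotic entry, had a median of 2.14 RPKM at 24 h and of 1.01 at 72 h, with a range of 0.830 to 2.43 at the later time (log2 difference -0.60 ± 0.30, adjusted p = 0.256, limma).

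The most abundant members showed a wide scatter at the later time. Rrm2 ranged from 29.1 to 69.2 RPKM (median 33.7) in NC 24 h and read 23.9, 20.1, 58.0, 49.1 and 28.0 in NC 72 h. Birc5 ranged from 40.2 to 54.8 (median 44.5) and then read 23.5, 19.8, 56.3, 57.3 and 21.8. In both genes replicates 4 and 5 stood at more than 45 RPKM and the other 3 samples below 30. The log2 differences were -0.32 ± 0.30 for Rrm2 (adjusted p = 0.584) and -0.52 ± 0.26 for Birc5 (adjusted p = 0.262, limma for both).

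**Figure D2:**
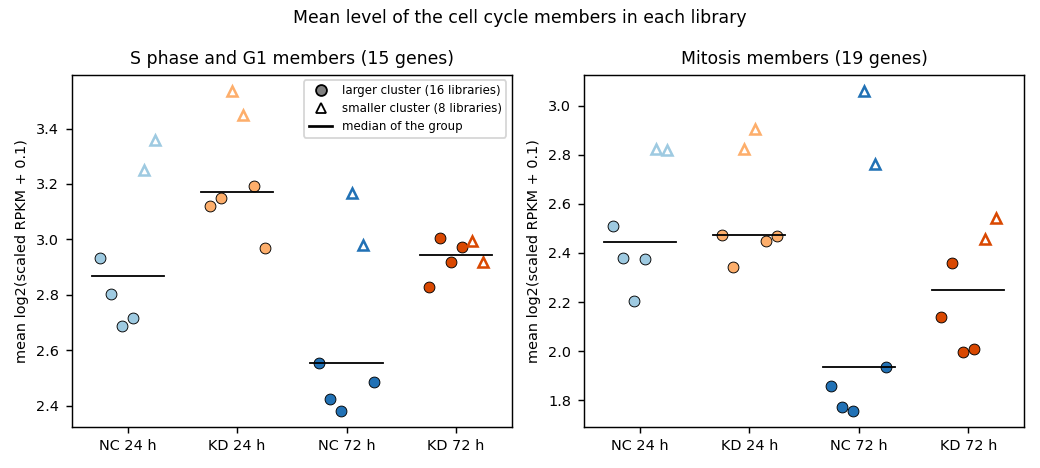
Mean log2 level (log2 of scaled RPKM + 0.1) of the 15 S phase and G1 members and the 19 mitosis members in each of the 24 libraries, by group. Circles are libraries of the larger cluster, open triangles those of the smaller cluster and bars group medians with NC 72 h replicates 2 and 3 averaged. In NC 72 h the mitosis mean of every circle was at most 1.93 and that of the 2 triangles at least 2.76.

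Replicates 4 and 5 of NC 72 h belong to the smaller cluster, and the plot of mean levels by library shows the same split in the other groups. The mean log2 level of the mitosis members was 1.77, 1.86 and 1.93 in the lowest, middle and highest of the 3 NC 72 h samples of the larger cluster, and 2.76 and 3.06 in those of the smaller cluster. Member by member, 18 of 19 mitosis genes were higher in the smaller cluster in NC 72 h, by a median of 1.23 on the log2 scale. In 16 of the 19 the clusters did not overlap, against 15.6% of all entries. The S phase and G1 members were higher in 14 of 15 cases, by a median of 0.61, with 10 not overlapping. These are descriptions of clusters drawn from the data, not tests.

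The other groups showed a smaller shift of the same sign. In NC 24 h, 18 of 19 mitosis members and 15 of 15 S phase and G1 members were higher in the smaller cluster, by medians of 0.42 and 0.55, and 10 and 8 of them did not overlap against 12.2% of all entries. In KD 24 h the counts were 16 of 19 and 12 of 15, the medians 0.48 and 0.37, and the members not overlapping 11 and 7 against 17.1%. In KD 72 h they were 17 of 19 and 11 of 15, with medians of 0.42 and 0.04, and 6 and 2 members lay higher without overlap against 13.4%, while Ccnd1 lay lower in the smaller cluster without overlap (6.15 against 11.8 RPKM). Over all entries the median shift between clusters lay between 0 and 0.06 in every group. The S phase and G1 list in KD 72 h was thus the case in which the clusters lay closest.

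Some markers of cell types differed between the clusters too. Markers with a mean RPKM above 10, such as Adipoq, Lpl and Ly6a, were among the genes that set the clusters. Their differences are therefore not independent of the clusters. In the macrophage and leukocyte list 2 of 9 genes were high enough to be compared. Lyz2, the lysozyme gene of macrophages, averaged 7.18 RPKM in the larger and 23.4 in the smaller cluster of NC 72 h, 6.64 and 22.4 in NC 24 h, 1.07 and 12.4 in KD 24 h, and 0.477 and 2.59 in KD 72 h. Csf1r, the other gene, did not follow it everywhere, with 7.43 against 3.75 RPKM in KD 72 h and 2.51 against 2.42 in NC 72 h. The summed macrophage list ranged from 2.81 to 14.0 RPKM in the larger and from 7.06 to 37.3 in the smaller cluster. Of the defining markers, the leukocyte gene Ptprc was listed at 0 in 16, the mannose receptor Mrc1 in 17 and the complement gene C1qc in 15 of the 24 libraries. C1qc had 2 to 26 reads in each library of the smaller cluster. In the larger cluster it had 3 reads in KD 24 h replicate 5 and 0 elsewhere. C1qb had 5 to 20 reads in the smaller and 0 to 3 in the larger cluster, and C1qa had 1 to 7 and 0 to 2. Cd68 (1 to 10 against 0 to 9) and Adgre1 (0 to 10 against 0 to 6) overlapped. So did Ptprc (0 to 8 against 0 to 1) and Mrc1 (0 to 5 against 0 to 3). Of 6 compared progenitor markers, 1 was higher in the smaller cluster at 24 h in KD and in NC cells, and 2 at 72 h. Ly6a, the stem cell antigen Sca-1, was lower there in NC 72 h (808 against 423 RPKM), while Thy1 (34.9 against 45.6) and Pdgfrb (12.1 against 14.6) were higher. All 6 compared adipocyte markers were higher in the smaller cluster in KD 24 h, NC 24 h and KD 72 h, by medians of 0.55, 0.06 and 0.50 on the log2 scale, and 2 of 6 in NC 72 h (median -0.26). The part of these cells in the members' levels was not tested.

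Within the clusters the control time course had opposite signs for the mitosis list. In the larger cluster (3 samples at 72 h against 4 at 24 h) all 18 tested mitosis members had negative log2 differences, with a median of -0.56. There 4 mitosis genes fell: Plk1 (-1.19), Ube2c (-1.19), the ubiquitin-conjugating enzyme of the anaphase-promoting complex, Birc5 (-0.96) and the cyclin gene Ccnb1 (-0.62), against 4.81% of entries called lower. In the smaller cluster (2 against 2) 15 of 19 mitosis members were positive, with a median of 0.20 and no call. The S phase and G1 medians were negative in both, at -0.42 and -0.25. In that list 14 of 15 estimates were negative in the larger cluster, and 9 were negative and 6 positive in the smaller. The difference between the clusters in this time course was not tested. The clusters were found after the data were seen, and a fit on 2 against 2 samples borrows most of its spread from the other entries.

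At 24 h after transfection the question is what the gapmer against Ctcflos changed early. Of the 33 tested members, 2 were higher in KD cells, Mcm3 in the S phase list and Cdc20 in the mitosis list, and no member was lower. In this comparison 10.5% of all 51971 entries were higher and 12.1% lower. The 2 calls stand beside these shares and are no result about the list. The members' median log2 difference was 0.26 (0.43 for S phase and G1, 0.20 for mitosis), beside -0.03 over all entries, and it was positive in 10 of 15 S phase and G1 members and in 10 of 18 mitosis members. At an unadjusted p under 0.05 there were 12 of the 33 members, beside 19289 of the 51971 entries, so this count is no result about the list. Adipocyte markers differed as well at this time, with 6 of 6 tested estimates negative, 3 called lower and a median of -0.39, and their part in the members' differences was not tested.

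Mcm3 showed the clearest difference. It ranged from 3.85 to 7.997 RPKM (median 5.52) in NC 24 h and from 7.91 to 12.3 (median 10.5) in KD 24 h. The groups overlapped only at their edges, since the highest control library stood just above the lowest KD library. KD cells had 180% of the control level, a log2 difference of 0.87 ± 0.19 (adjusted p = 0.00617, limma). All 6 helicase genes were positive, from 0.35 for Mcm7 to 0.87 for Mcm3, and Mcm2 missed the threshold at 0.74 ± 0.26 (adjusted p = 0.0514, limma).

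Cdc20 ranged from 4.10 to 7.91 RPKM (median 6.46) in NC 24 h and from 6.41 to 14.8 (median 9.41) in KD 24 h. In KD cells 5 of 6 libraries lay above every control library, and the remaining library (replicate 5, 6.41) lay within the control range. KD cells had 161% of the control level, a log2 difference of 0.66 ± 0.21 (adjusted p = 0.0332, limma). This call was lost when any of 7 libraries was left out singly, with adjusted p-values from 0.0518 to 0.0752, so it rests on no particular library but stands close to the threshold.

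The most abundant members and several others gave no call. Rrm2 ranged from 33.95 to 110 RPKM in KD 24 h, with a median of 47.3 beside 33.7 in NC 24 h (log2 difference 0.48 ± 0.31, adjusted p = 0.267, limma). Birc5 ranged from 22.5 to 59.3 (median 43.6) beside a control median of 44.5 (-0.16 ± 0.20, adjusted p = 0.59). Tk1, the salvage kinase of thymidine, went the other way from the helicase genes, with 4.23 to 23.8 RPKM (median 10.9) in KD 24 h and 15.9 to 24.9 (median 20.3) in NC 24 h (-0.78 ± 0.33, adjusted p = 0.0977). In the larger cluster alone it was called lower (-1.14), beside 12.9% of entries called lower there. The checkpoint kinase Bub1b was the lowest of all members, at -0.87 ± 0.34 (adjusted p = 0.0767), from means of 14.7 reads a library in KD 24 h and 28.8 in NC 24 h.

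Within the clusters the S phase calls at 24 h differed by gene. In the larger cluster Mcm2 (1.01) and Mcm3 (1.06) were higher, beside 12.1% of entries called higher. In the smaller cluster the same estimates were 0.20 (adjusted p = 0.699) and 0.49 (adjusted p = 0.233, limma). Rrm2 (0.64) was higher there, beside 1.32% of entries. No mitosis member was called in either cluster, where Cdc20 had 0.79 in the larger (adjusted p = 0.0601) and 0.40 in the smaller cluster (adjusted p = 0.347).

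**Figure D3:**
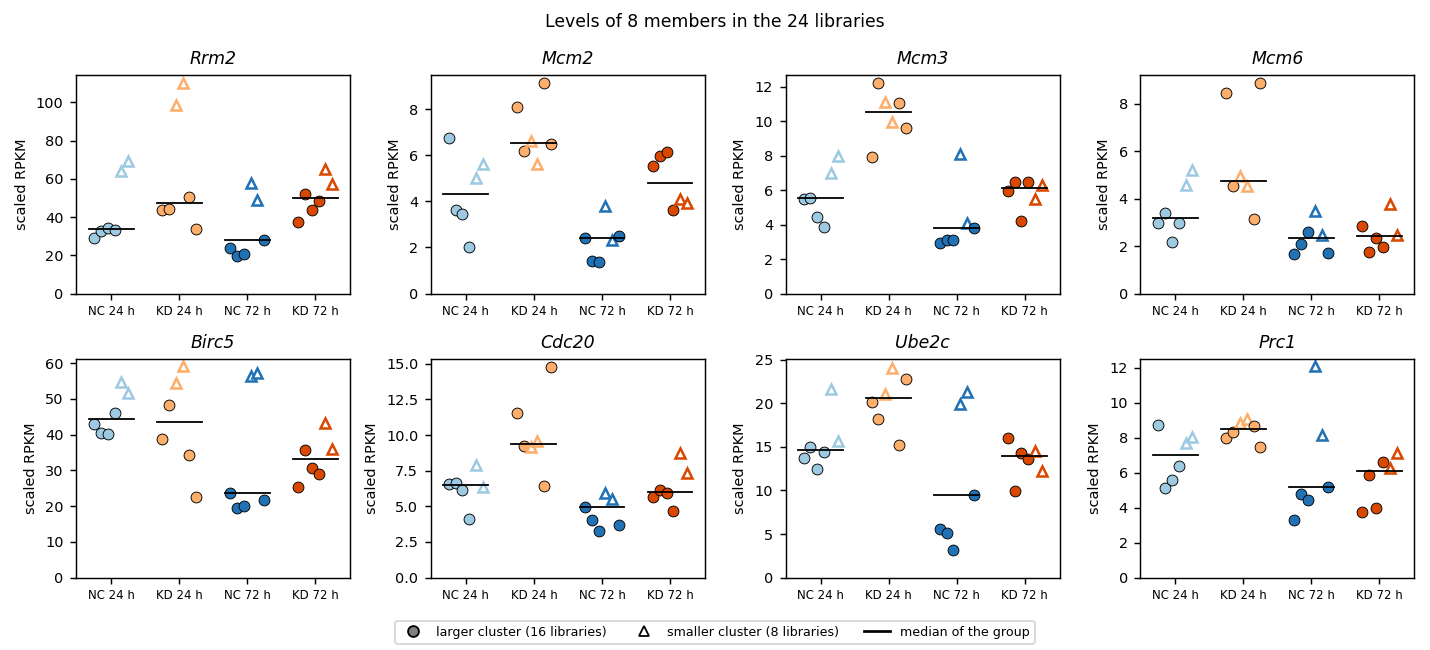
Scaled RPKM of 8 members (Rrm2, Mcm2, Mcm3, Mcm6, Birc5, Cdc20, Ube2c and Prc1) in each of the 24 libraries, by group, with circles for the larger and open triangles for the smaller cluster and bars for group medians. Mcm3 in KD 24 h ran from 7.91 to 12.3 RPKM, with no overlap with its KD 72 h range of 4.22 to 6.504, and Birc5 in NC 72 h split into 4 circles below 24 and 2 triangles above 56 RPKM.

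At 72 h the comparison asks which differences were present after 2 further days of differentiation. Of the 34 members only Mcm2 was called, which was higher in KD cells. Over all 54412 entries 10.1% were higher and 12.1% lower, and higher calls made up 45.4% of the calls. On the deposited scale, where the median over all entries moved from 0.003 to 0.25, higher calls made up 81% of the calls. There 5 members were higher, 4 of them in the S phase and G1 list. The share of all entries called higher on that scale is not given here, so this count is no result about the members. The members' median log2 difference was 0.06, with 0.14 in the S phase and G1 list (11 of 15 positive) and -0.04 in the mitosis list. There were 4 members at an unadjusted p under 0.05, beside 19298 of the 54412 entries. The summed adipocyte markers had a median of 27425 RPKM in KD 72 h and 45820 in NC 72 h. Most of that sum was Fabp4, which was not tested. The 6 tested markers summed to 3465 to 5204 RPKM in KD 72 h and to 5120 to 5619 in NC 72 h. Of these, 5 had negative estimates and 3 were called lower, and the median log2 difference was -0.47. The part of these markers in the members' differences was not tested.

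Mcm2 ranged from 3.62 to 6.12 RPKM (median 4.81) in KD 72 h, beside 2.41, 1.41, 3.78, 2.31 and 2.495 in NC 72 h. Only control replicate 4 reached into the KD range. KD cells had 197% of the control level, a log2 difference of 0.98 ± 0.24 (adjusted p = 0.0111, limma), and the call held whichever library was left out. With the replicate number as a block the difference was 0.91 with an adjusted p of 0.07.

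Rrm2 ran from 37.6 to 65.1 RPKM (median 50) in KD 72 h, a log2 difference of 0.60 ± 0.25 (adjusted p = 0.1, limma) over the control values of 20.1 to 58.0. Without NC 72 h replicate 4 it was called higher, at 0.80 (adjusted p = 0.0229). The Cdc20 difference of 0.42 ± 0.20 did not pass the test (adjusted p = 0.14), with 4.70 to 8.72 RPKM (median 6.02) in KD 72 h. Nusap1, a spindle microtubule protein, was lower in estimate, with 4.59 to 8.20 RPKM (median 6.47) in KD cells and 5.18 to 13.3 (median 6.32) in controls (-0.36 ± 0.28, adjusted p = 0.382). Birc5 lay at 25.3 to 43.3 RPKM (median 33.2) in KD 72 h, between the low and the high control samples, and its difference was 0.04 ± 0.28 (adjusted p = 0.931).

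The KD difference at 72 h had opposite signs in the clusters for the mitosis list. In the larger cluster (4 KD and 3 NC samples) all 15 S phase and G1 members were positive, with a median of 0.35, and 5 were higher: Mcm2 (1.31), Rrm2 (0.92), Mcm3 (0.79), Rrm1 and Ccnd1. In the mitosis list 15 of 17 were positive there, with a median of 0.22, and Ube2c (1.13) and Birc5 (0.47) were higher, beside 11.4% of entries called higher. In the smaller cluster (2 against 2) the Mcm2 estimate was 0.42 (adjusted p = 0.502, limma), and 17 of 19 mitosis members were negative, with a median of -0.47. Ccnb1 (-1.04), Cdk1 (-0.72) and the centromeric histone gene Cenpa (-0.70) were lower there, and of the S phase and G1 list Tk1 (-0.96) and the G1 cyclin gene Ccnd1 (-0.86), beside 6.94% of entries called lower. Ccnd1 was thus called in opposite directions in the 2 clusters. Whether the KD difference itself depended on the cluster was not tested.

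**Figure D4:**
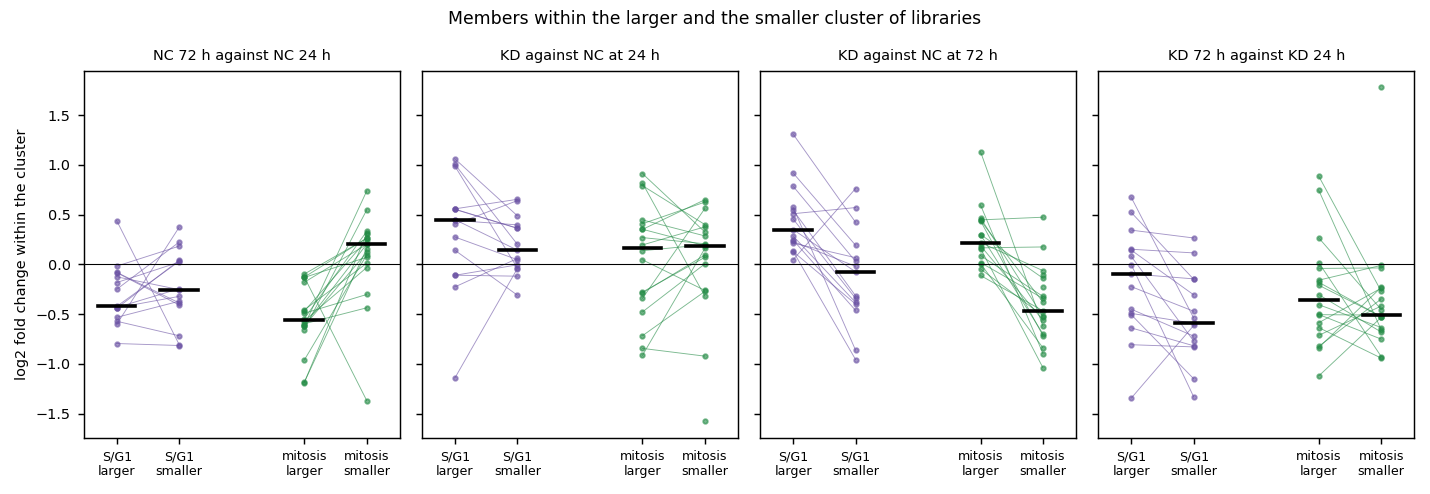
Log2 differences of the tested members within the larger and the smaller cluster of libraries, for the control and KD time courses and for KD against NC at 24 h and at 72 h, with bars at the list medians and lines that join the values of a member. For KD against NC at 72 h the mitosis medians were 0.22 in the larger and -0.47 in the smaller cluster.

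The KD cells over time gave the most calls. Between 24 h and 72 h, 6 of 33 tested members fell and none rose: Mcm6, Mcm3, Mcm5 and Ccne2 in the S phase and G1 list, and Prc1 and Ube2c in the mitosis list. Over all 53164 entries 4.76% were lower and 5.08% higher. On the deposited scale, where the median over all entries was 0.16 in place of 0.002, the share of higher among the calls went from 51.7% to 80.9%, and of the 6 members the call was left in Mcm3. The log2 difference was negative for 26 of the 33 members, with a median of -0.43 (-0.31 for S phase and G1, -0.45 for mitosis). An unadjusted p under 0.05 was found for 13 members, beside 13372 of the 53164 entries. The control course had a member median of -0.21, and the plot of fold changes sets the 2 courses side by side.

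Among the helicase genes, Mcm3 fell from a range of 7.91 to 12.3 RPKM (median 10.5) in KD 24 h to one of 4.22 to 6.504 (median 6.15) in KD 72 h, with no overlap. The later level was 56.5% of the earlier, a log2 difference of -0.82 ± 0.16 (adjusted p = 0.00539, limma), and the call held in all 23 alternatives run. Mcm6 fell from a range of 3.14 to 8.87 RPKM (median 4.75) to one of 1.74 to 3.78 (median 2.42), which is 44.0% of the earlier level (-1.10 ± 0.27, adjusted p = 0.0189). Mcm5 ran from 3.76 to 7.28 (median 4.87) at 24 h and from 2.61 to 3.99 (median 2.98) at 72 h (-0.72 ± 0.21, adjusted p = 0.0437). The Mcm5 groups overlapped slightly, and that call was lost without any of 9 libraries.

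Ccne2, an E-type cyclin that starts S phase with CDK2, ran from 6.83 to 11.8 RPKM (median 9.88) in KD 24 h and from 4.59 to 7.62 (median 5.90) in KD 72 h. Most of the later libraries lay below the earlier range. The level at 72 h was 61.1% of that at 24 h (-0.70 ± 0.19, adjusted p = 0.0271, limma), and the call was lost without any of 7 libraries.

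In the mitosis list, Prc1, which bundles the microtubules of the central spindle, fell from a range of 7.48 to 9.09 RPKM (median 8.49) to one of 3.75 to 7.12 (median 6.07), with no overlap (66.6%, -0.62 ± 0.18, adjusted p = 0.0481, limma). That call was lost without any of 10 libraries. Ube2c ran from 15.2 to 24.1 RPKM (median 20.6) at 24 h and from 9.93 to 16.1 (median 14.0) at 72 h, so the groups overlapped at their edges (66.4%, -0.59 ± 0.15, adjusted p = 0.026). Its adjusted p was 0.0613 without KD 72 h replicate 2 and 0.0532 without KD 72 h replicate 6. Birc5 and Rrm2, the most abundant members, gave -0.31 ± 0.22 (adjusted p = 0.392) and -0.20 ± 0.27 (adjusted p = 0.681).

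Within the larger cluster Mcm3 and Mcm6 were lower over time in KD cells, beside 5.89% of entries. Within the smaller cluster 9 members were lower, beside 8.86%: Mcm3, Mcm4, Mcm5, Rrm2 and Ccnd1 (-1.33) in the S phase and G1 list, and Birc5, Ccnb1, Cdk1 and Ube2c in the mitosis list.

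**Figure D5:**
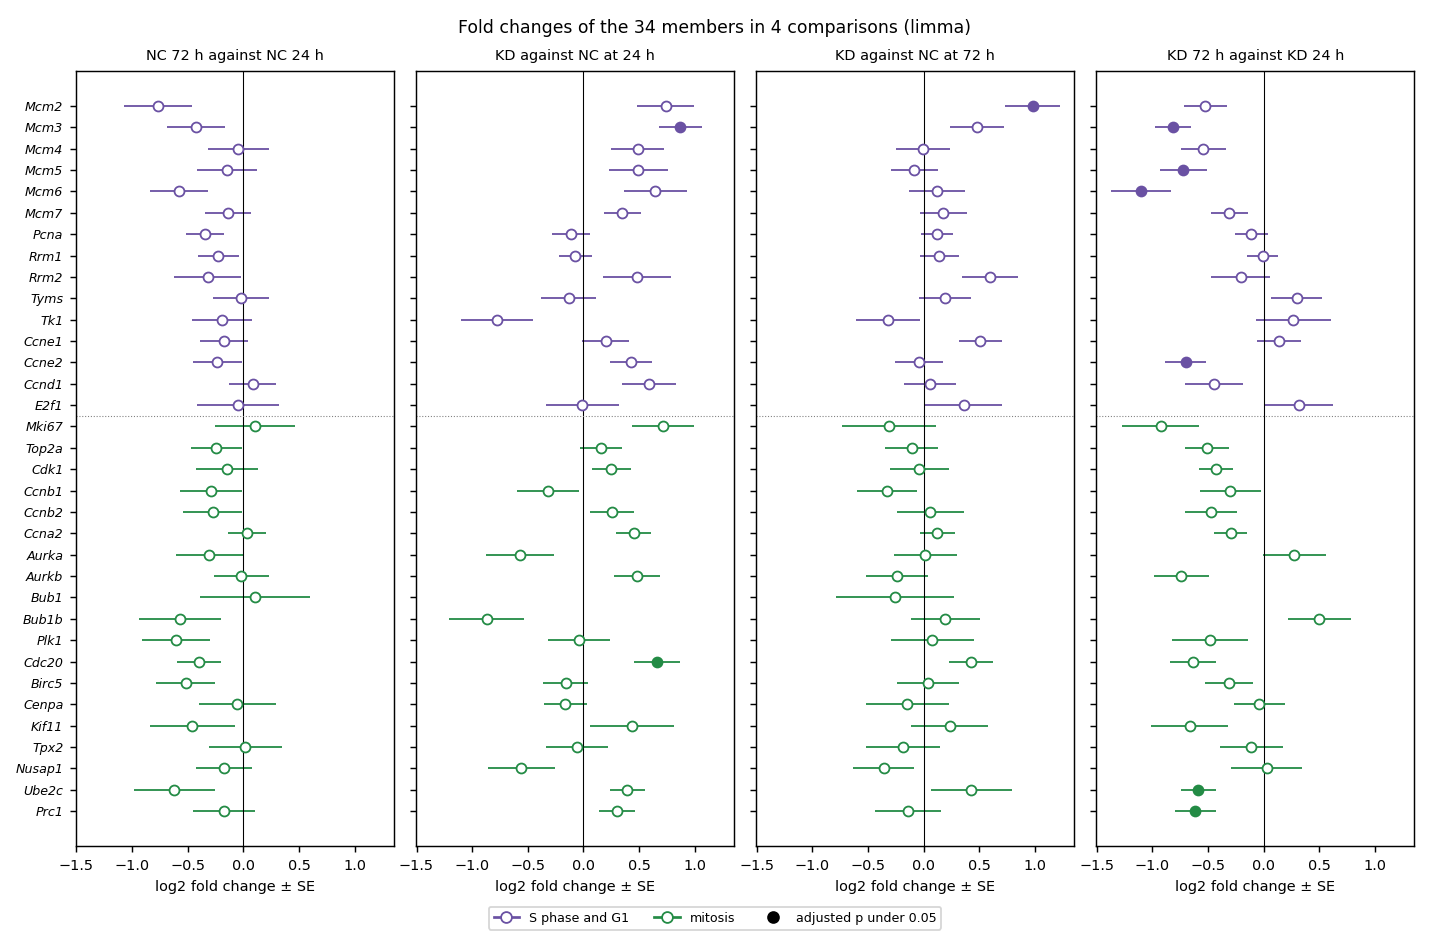
Log2 difference of each of the 34 members in the 4 comparisons (control over time, KD over time, and KD against NC at 24 h and at 72 h), with bars of 1 SE and filled points for an adjusted p under 0.05 (limma). No point is filled for the control time course, 6 are filled for the KD time course, all below 0, and Mcm3, Cdc20 and Mcm2 are filled above 0 for KD against NC.

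The time courses of KD and NC cells were compared directly by the interaction of knockdown and time, and no member of the 34 passed that test. Only 0.116% of the 59378 entries had a higher and 0.0758% a lower interaction. On the deposited scale the share of higher among these calls went from 60.5% to 96.1%. The member with the smallest p was Bub1b, with an interaction of 1.07 ± 0.48 (adjusted p = 0.381, limma). Its medians were 0.936 RPKM in KD 24 h, 2.00 in NC 24 h, 1.39 in KD 72 h and 1.41 in NC 72 h. Aurkb, the kinase of the chromosomal passenger complex, followed with -0.72 ± 0.35 (adjusted p = 0.433), from medians of 7.27, 4.48, 3.62 and 4.78 in the same order. In the S phase and G1 list Mcm5 (-0.58, adjusted p = 0.533) and Ccne2 (-0.47, adjusted p = 0.547) came first. The larger number of calls in KD than in control cells over time is therefore not shown to be a difference between them. The comparisons share groups of libraries (NC 24 h enters both the control course and the early KD comparison), so their values are set side by side and no overlap between them is counted.

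The spread between replicates was itself uneven. The median SD of the mitosis members on the log2 scale was 0.71 in NC 72 h, beside 0.40 in KD 24 h, 0.31 in NC 24 h and 0.34 in KD 72 h. Over all entries the median SD was 0.474 in KD 24 h, 0.325 in NC 24 h and 0.348 in KD 72 h. In NC 72 h 17 of 19 mitosis members had an SD above the median of all entries, which was 0.36. The S phase and G1 members had median SDs of 0.44 in NC 72 h, 0.39 in NC 24 h, 0.38 in KD 24 h and 0.28 in KD 72 h, and 11 of 15 lay above the median of all entries in NC 72 h. Ube2c was the widest mitosis member in NC 72 h (SD 1.05), with 5.55, 4.15, 19.96, 21.3 and 9.43 RPKM in its 5 samples. The narrowest there was Ccna2 (SD 0.30), the cyclin of S phase and G2. Prc1 had the narrowest spread of the mitosis list in KD 24 h (SD 0.10). Its NC 72 h samples read 3.31, 4.62, 12.1, 8.14 and 5.16 RPKM, with replicates 4 and 5 again on top.

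Further cell cycle genes outside the 34 were followed as lists, read beside the same shares of all entries. Of 38 other S phase genes, 4 were higher and 4 lower in KD cells at 24 h (32 tested), and 2 higher and 5 lower at 72 h (34 tested). Between 24 h and 72 h, 1 of them fell in control cells and 2 in KD cells (33 tested in each), beside 4.65% and 4.76% of all entries. The licensing factor Cdt1 was higher at both times (1.56, adjusted p = 0.00638, and 2.12, adjusted p = 0.000297), and so was the polymerase alpha subunit Pola2 (1.22 and 2.26). Both had few reads in NC 72 h, with 3 to 18 a library for Cdt1 and 0 to 6 for Pola2. The clamp loader subunit Rfc2 was lower at both times (-1.27 and -0.89). For KD against NC the list's counts lie near the shares of all entries. These shares were 10.5% higher and 12.1% lower at 24 h and 10.1% and 12.1% at 72 h.

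Beside 4.65% of all entries lower and 4.44% higher, 1 of 40 other mitosis genes (36 tested) was called in control cells over time. It was Pttg1, the securin that holds back separase, which was lower at 72 h in both time courses, by -1.32 ± 0.22 in control cells (adjusted p = 0.00171) and by -1.68 ± 0.17 in KD cells (adjusted p = 2.63e-05, limma). In KD cells at 24 h it was higher (0.59, adjusted p = 0.0143). The list gave 2 higher and 3 lower genes in KD cells at 24 h (35 tested), beside 10.5% and 12.1% of all entries. At 72 h it gave 2 higher and 0 lower (36 tested), beside 10.1% and 12.1%, and the motor gene Kif4 (1.02) was among the higher genes. In the KD time course 3 genes of the list were lower (36 tested), beside 4.76% of all entries. These were Pttg1, Racgap1 (-0.93) and the checkpoint gene Mad2l1 (-0.88).
Of 15 G1 cyclin, kinase and E2F genes, 11 were tested in each time course. Of these 2 were lower over time in control cells and 1 in KD cells, beside 4.65% and 4.76% of all entries. KD cells had 3 higher and 1 lower at 24 h (11 tested), beside 10.5% and 12.1% of all entries. At 72 h they had 2 higher and 1 lower (10 tested), beside 10.1% and 12.1%. Ccnd2, a D-type cyclin, was lower over time in control cells (-0.56 ± 0.07, adjusted p = 0.000151) and lower in KD cells at 24 h (-0.76) and 72 h (-0.41). Myc, a growth factor-induced transcription factor, was higher in KD cells at both times (0.66 and 0.61). E2f2 was lower over time in control cells (-1.95, adjusted p = 0.00305, limma), with only 1 to 16 reads a library in NC 72 h.

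Of 18 inhibitors of the cycle and pocket proteins, 5 were higher and 1 lower in KD cells at 24 h (17 tested), and 6 higher and 1 lower at 72 h (16 tested). The shares of all entries were 10.5% higher and 12.1% lower at 24 h, and 10.1% and 12.1% at 72 h. Over time 3 were higher and 2 lower in control cells (16 tested), beside 4.44% and 4.65% of all entries. In KD cells 1 was higher (17 tested), beside 5.08%. Cdkn1a, the p53 target that encodes p21, was higher in KD cells by 0.43 ± 0.13 at 24 h (adjusted p = 0.024) and 0.86 ± 0.12 at 72 h (adjusted p = 0.000202, limma). Cdkn2b, an inhibitor of CDK4 and CDK6, was higher by 0.93 at 24 h and 0.73 at 72 h. Cdkn1c, which encodes p57, was lower over time in control cells (-1.53 ± 0.30, adjusted p = 0.00476) and higher in KD cells at 72 h (2.12 ± 0.33, adjusted p = 0.000535). It was the gene of these lists whose interaction of knockdown and time passed the test (1.90 ± 0.38, adjusted p = 0.0339, limma). In NC 72 h it averaged 2.24 RPKM in the larger and 5.41 in the smaller cluster, and in KD 72 h 16.9 and 9.37. The difference at 72 h was 2.92 (adjusted p = 1.7e-05) within the larger and 0.79 (adjusted p = 0.103) within the smaller cluster, and the interaction was 2.61 (adjusted p = 0.000412) and 0.74 (adjusted p = 0.332, limma).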

How the data were processed

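Bulk RNA barcoding and sequencing (BRB-seq: barcoded oligo-dT cDNA, then tagmentation) gave 24 libraries in 4 groups of 6. The deposited table holds RPKM values per transcript entry, computed by the authors per library over 168326 entries of RefSeq, Ensembl and GenBank, with decimal commas. The authors aligned the tags to NCBI's RefSeq database and tested with DESeq2 in the Genomatix suite, and further settings and any use of molecular identifiers are not given in the sources used here. From the steps between low RPKM values the mapped reads per library and the length per entry were recovered, which gave whole reads for more than 94% of low values in each library.

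The members and the gene lists were chosen with earlier results of these data known. Groups came from the labels. Values were scaled by a trimmed mean of log ratios (30% of ratios and 5% of levels trimmed at each end), and log2(RPKM + 0.1) was tested with limma 3.58.1 (R 4.3.3) on the libraries of the groups compared, with no block and Benjamini-Hochberg adjustment over all entries tested. A fold change on this scale understates that of low genes. Entries whose value stood for at least 10 reads at the median depth, in as many samples as the smaller group holds, and with 15 reads in all were tested, and a call is an adjusted p under 0.05. Named genes were, per list and comparison, the called members with the largest change (up to 4) or the 2 with the smallest p, and the most abundant member, plus up to 3 called genes of each other list. Further members and lesser calls were named after their values were seen. The interaction was fitted on all 4 groups. Alternatives were the pseudocount, the filter, the scaling, the entry of a gene, the replicate block, voom on recovered reads, each library left out, and, added after the data were seen, a fit within each cluster of libraries (deviations from the group means over genes of mean RPKM above 10, correlation distance, Ward linkage). The planned clustering, on Euclidean distance over 12560 genes, set only KD 24 h replicate 6 apart, so no fit within its clusters could be made.

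Replicate numbers did not pair the samples: the mean correlations of same-numbered libraries were 0.0158, -0.0495, 0.00888 and -0.0162 in the 4 comparisons. Pcna, Tyms, Ccnb1 and Ccnb2 have named pseudogenes that may share reads with them. Promoters are RefSeq sequence of GRCm38.p6 searched with Python 3.11.15, pandas 2.3.3 and NumPy 2.4.6, and plots used matplotlib 3.10.9. Scripts were tested on simulated data. A gene of the other S phase list is not reported here by name.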

Additional observations from a re-analysis of the deposited data

Results flagged for a closer look

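For the 14 named members and the mean levels of the 2 member lists, the highest and the lowest value in each of the 4 groups were examined for a gap to the nearest other sample that is large against the range (Dixon's 95% limit). Of the 64 sets of values 4 passed, while chance alone passes about 1 in 20, which is 3.2 here. Mcm3 stood at 8.094 RPKM in NC 72 h replicate 4, beside 2.941 to 4.093 in the other 4 samples of that group. Ccne2 stood at 4.553 RPKM in NC 24 h replicate 2, beside 7.114 to 8.523 in the other libraries. Plk1 stood at 3.367 RPKM in KD 72 h replicate 6, beside 0.9262 to 1.567. Ube2c stood at 21.7 RPKM in NC 24 h replicate 5, beside 12.41 to 15.73. Except for that of Ccne2, these libraries belong to the smaller cluster.

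The inhibitor gene Cdkn1c was singled out because its KD difference was not the same at the 2 times by a test of the difference itself. The interaction of knockdown and time was 1.9 on the log2 scale (adjusted p = 0.0339, limma). It was 2.61 within the larger cluster (adjusted p = 0.000412) and 0.74 within the smaller cluster (adjusted p = 0.332).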

How the results depend on the processing

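Of 722 values of named members under the alternatives, 633 kept their direction and their side of the threshold, 60 lost and 12 gained a call, and 17 changed sign. The cause of these changes was not tested.

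Calls of mitosis members higher at 24 h in KD cells numbered 1, against 0 without the filter, with the replicate block and within either cluster, 2 with the median of ratios, and 3 on the deposited scale and with voom. S phase and G1 members higher at 24 h numbered 1, against 2 with a pseudocount of 1, the median of ratios, 1 entry per gene, the replicate block or within the larger cluster, where 1 was lower, and 3 on the deposited scale and with voom. At 72 h, S phase and G1 members higher numbered 1, against 4 on the deposited scale, 3 with the agreeing libraries kept apart, 5 within the larger and 0 within the smaller cluster, and 0 with the replicate block. Mitosis members higher at 72 h numbered 1 on the deposited scale and 2 within the larger cluster, and within the smaller cluster 3 mitosis and 2 S phase and G1 members were lower. In the KD time course the mitosis calls went from 2 to 1 without the filter or with the entry of highest mean, to 0 on the deposited scale, with the replicate block and within the larger cluster, and to 4 within the smaller cluster. The S phase and G1 calls went from 4 to 1 on the deposited scale and to 2 within the larger cluster. On the deposited scale the adjusted p was 0.0571 for Mcm6, 0.0597 for Ccne2, 0.089 for Mcm5, 0.108 for Ube2c and 0.149 for Prc1. In the control time course 4 mitosis members were lower within the larger cluster. Not all of these counts stand beside a share of all entries under the same setting. They describe how the calls depend on the processing and are no result about the members.

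Entries called over the whole table, in the order control time course, KD against NC at 24 h, at 72 h, KD time course and interaction, were 1054, 2601, 2771, 1275 and 47 with 1 entry per gene, where fewer were tested. With the replicate block, which the pairing check does not back, they were 2858 in the control time course and 28 for the interaction. Within the smaller cluster they were 1753, 1550 and 5738 in the first 3 and 1831 for the interaction, where 1 S phase and G1 member was lower. The interaction gave 243 with a pseudocount of 1, 774 on the deposited scale, 182 with the agreeing libraries apart and 860 within the larger cluster. With the block, Cdc20 at 24 h had an adjusted p of 0.069, Ube2c 0.0582, Mcm5 0.0891 and Prc1 0.0941.

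Signs changed within the smaller cluster for Plk1 (0.309) and Birc5 (0.095) in the control time course, for Birc5 at 24 h (0.094) and 72 h (-0.526), and for the interactions of Birc5 (-0.62) and Rrm2 (-0.449). They changed within the larger cluster for Nusap1 at 72 h (0.006) and for Rrm2 in the KD time course (0.08). None of these was a call over all libraries.

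Leaving out each library in turn gave 1 to 3 S phase and G1 members higher at 24 h and at 72 h (3 without NC 72 h replicate 4), 0 to 1 lower at 24 h and in the control time course (Mcm2, -0.966, adjusted p = 0.0465, without NC 24 h replicate 4), and 2 to 5 lower in the KD time course. For mitosis it gave 0 to 3 higher and 0 to 1 lower at 24 h, and 0 to 3 lower in the KD time course. Entries called ranged from 3653 to 4697, 9000 to 14128, 9722 to 12022, 3714 to 6530 and 53 to 177 in the same order. Birc5 ranged from -0.268 to 0.011 at 24 h and from -0.128 to 0.254 at 72 h, and the Rrm2 interaction from -0.059 to 0.322. The calls of Mcm3, Mcm6 and Mcm2 were kept in every such fit. Depth limits the low members, since Bub1, Kif11 and Plk1 had few reads in a library.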
